A study of Mus musculus with 13 samples.

Results

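The 10 genes described here encode enzymes of prostaglandin and leukotriene synthesis and a prostaglandin receptor, and they were taken by symbol from the 55487 genes listed in both deposited count tables. They are *Ptgs1* and *Ptgs2* (the cyclooxygenases COX-1 and COX-2), *Ptges*, *Ptgis*, *Ptgds* and *Hpgds* (terminal prostanoid synthases), *Alox5*, *Alox5ap* and *Ltc4s* (the leukotriene branch) and *Ptger4* (the EP4 receptor for prostaglandin E2). Since these genes were picked with their levels by state within genotype already known, the differences between primary and immortalized cells are given for them as a description, without a test. The differences between genotypes were not the basis of that choice and were tested. These tests use the same libraries whose levels were known, so their p-values may not be independent of the choice.

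Prostaglandins and leukotrienes are lipid mediators made from arachidonic acid, which phospholipases release from membranes. Cyclooxygenases turn arachidonic acid into prostaglandin H2, from which a terminal synthase makes a single product, such as prostaglandin E2, prostaglandin D2 or prostacyclin. 5-lipoxygenase, with the help of its activating protein, starts the leukotriene branch, which is known mainly from myeloid cells, whereas fibroblasts are known as a source of prostaglandin E2 and prostacyclin and induce COX-2 in response to serum and cytokines.

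Poly-A RNA was sequenced from 13 cultures of mouse embryonic fibroblasts (MEFs), before (primary) and after (immortalized) spontaneous immortalization by serial passage, a modified 3T3 protocol. The wild-type (WT) groups hold 3 primary libraries, of clones 3, 4 and 5, each from a different embryo, and the immortalized line grown from each of these clones. The groups labelled *Prkd3*-/- hold 3 primary libraries, of clones 13, 14 and 15, and 4 immortalized lines, of which 13 and 13a carry the same clone number and are not independent of each other. All cells were grown in medium with 10% fetal calf serum (FCS), and cultures that had become senescent were moved to 20% FCS until colonies grew out, so each immortalized line is a population derived from such colonies and the states also differ in passage. *Prkd3* (protein kinase D3) had 33.6 to 43.2 CPM (counts scaled to a common library size, normalized by TMM over the 13 libraries) in the *Prkd3*-/- primary libraries and 69.2 to 73.7 CPM in the WT primary libraries, and 43.8 to 61.0 CPM in the *Prkd3*-/- lines against 73.6 to 93.7 CPM in the WT lines, so the label was not seen as a loss of all counts, and a deletion within the gene cannot be read from counts per gene.

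The libraries held 35273408 to 100441756 counts, so that 3 counts corresponded to 0.0299 to 0.0850 CPM. The summed level of 9 fibroblast markers was 39534 to 40414 CPM in WT primary libraries, 30166 to 67881 CPM in WT lines, 23772 to 34074 CPM in *Prkd3*-/- primary libraries and 18553 to 30530 CPM in *Prkd3*-/- lines. The 14 macrophage markers, a list that holds *Ptprc*, *Csf1r*, *Adgre1* and *C1qa*, summed to 1579 to 1613 CPM in WT primary libraries and to 61.0 to 146 CPM in WT immortalized lines. In the *Prkd3*-/- primary libraries this sum was 172 CPM in clone 13, 2253 CPM in clone 14 and 417 CPM in clone 15, and in the *Prkd3*-/- lines it was 361 CPM in line 13a but 13.5 to 20.9 CPM in lines 13, 14 and 15. Primary clone 14 and line 13a thus stand apart from their groups, and the *Hpgds*, *Alox5* and *Alox5ap* differences between the *Prkd3*-/- states are given with and without each. Mast cell markers summed to at most 1.29 CPM and neutrophil markers to at most 0.976 CPM in any library. Genes differed beyond counting noise by 2.09% to 3.35% (coefficient of variation) between WT primary libraries and by 24.6% to 45.9% between *Prkd3*-/- immortalized lines, so p-values that rest on the WT primary libraries measure a very small spread, which may in part be technical.

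The RefSeq promoter windows (GRCm38.p6, the 250 bases before the gene start, written 5′ to 3′ on the gene's strand) are shown for the cyclooxygenases, whose levels diverged between libraries, and for *Hpgds* and *Alox5*, whose levels were lower in every WT immortalized line than in every WT primary library. They are at chr2:36230176-36230425 (plus strand, *Ptgs1*), chr1:150099781-150100030 (plus strand, *Ptgs2*), chr6:65144731-65144980 (minus strand, *Hpgds*) and chr6:116461179-116461428 (minus strand, *Alox5*). Capitals mark GAGGAAGT, the box bound by PU.1-type factors with its flank, in *Ptgs1* and *Hpgds*, and GGGCGG, the GC box, in *Ptgs2* and *Alox5*.
Ptgs1: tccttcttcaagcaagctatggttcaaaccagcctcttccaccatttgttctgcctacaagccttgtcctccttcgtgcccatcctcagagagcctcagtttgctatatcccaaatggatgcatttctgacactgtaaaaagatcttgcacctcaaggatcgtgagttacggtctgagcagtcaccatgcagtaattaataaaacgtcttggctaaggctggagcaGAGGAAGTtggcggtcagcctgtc
Ptgs2: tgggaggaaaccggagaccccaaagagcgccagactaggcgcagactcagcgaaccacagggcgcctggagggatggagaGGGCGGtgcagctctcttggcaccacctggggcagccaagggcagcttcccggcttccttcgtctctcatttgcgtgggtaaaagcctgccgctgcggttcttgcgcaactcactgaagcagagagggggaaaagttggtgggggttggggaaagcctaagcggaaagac
Hpgds: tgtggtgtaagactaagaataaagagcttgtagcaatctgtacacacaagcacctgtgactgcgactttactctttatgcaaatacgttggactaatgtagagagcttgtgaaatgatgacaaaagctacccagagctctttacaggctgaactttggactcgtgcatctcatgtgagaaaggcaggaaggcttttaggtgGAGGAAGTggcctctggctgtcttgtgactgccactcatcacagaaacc
Alox5: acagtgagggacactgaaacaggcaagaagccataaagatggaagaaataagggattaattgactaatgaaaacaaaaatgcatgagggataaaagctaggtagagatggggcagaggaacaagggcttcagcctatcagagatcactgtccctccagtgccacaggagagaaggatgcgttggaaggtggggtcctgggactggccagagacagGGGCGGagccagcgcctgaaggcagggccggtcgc
Of the 10 genes, 8 had a window in the RefSeq table, and both strands were searched for 5 motifs that do not overlap one another. GAGGAAGT was found 49 to 42 bases before the start of *Hpgds* and 24 to 17 bases before that of *Ptgs1*, and is present in 2.44% of the 32851 windows of the same length. GGGCGG was found in *Ptgs2*, *Ptges*, *Alox5* and *Ptger4* and is present in 32.7% of windows. TATAAA (12.4% of windows), TGACGT (6.47%) and CACGTG (6.02%) were found in none of the 8 windows. *Ltc4s*, also lower in every WT line than in every WT primary library, had a window with none of the 5 motifs. *Alox5ap*, lower in the same way, had no window. The motif matches only describe the letters in the windows. The RefSeq starts of *Hpgds*, *Ptges*, *Ptgds* and *Ltc4s* lie inside the genes as the count tables annotate them, and the *Ptges* and *Ptgds* windows lie wholly inside.

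The cyclooxygenases were measured in every library. *Ptgs2* (COX-2, the inducible enzyme, chr1:150100031-150108227, plus strand) had 123, 128 and 146 CPM in WT primary clones 3, 4 and 5, and 1001, 108 and 288 CPM in the WT immortalized lines 3, 4 and 5. Line 4 lay below all 3 primary libraries while lines 3 and 5 lay above them, so the groups overlapped, and the Log2FC of immortalized against primary was 1.81 ± 0.78 (SE, here and below from edgeR, n = 3 and 3 in WT), or 0.59 without line 3. Among the *Prkd3*-/- libraries *Ptgs2* had 285, 511 and 615 CPM in primary clones 13, 14 and 15, against 531, 165, 11.4 and 532 CPM in lines 13, 13a, 14 and 15. The lines spanned a 46.8-fold range, with line 14 the lowest of all 13 libraries. The Log2FC between the states was -0.63 ± 0.99 (n = 3 and 4), or -1.26 to -0.22 over the alternative fits. Standard errors for the *Prkd3*-/- lines, here and below, treat lines 13 and 13a as separate libraries.

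*Ptgs1* (COX-1, the enzyme known as constitutive, chr2:36230426-36252272, plus strand) had 28.4, 28.7 and 35.1 CPM in WT primary clones 3, 4 and 5 and 83.4, 34.8 and 52.8 CPM in the lines grown from them. The ranges overlapped only between line 4 and primary clone 5, and the Log2FC was 0.89 ± 0.32. Primary clones 13, 14 and 15 of *Prkd3*-/- cells had 16.6, 32.7 and 19.8 CPM, and lines 13, 13a, 14 and 15 had 2.92, 83.8, 43.4 and 21.0 CPM. Lines 13 and 13a, which share a clone number, held the lowest and the highest *Ptgs1* level of all 13 libraries, and the Log2FC of 0.71 ± 0.91 became -0.04 without line 13a.

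Per exon length, the level of *Ptgs2* relative to that of *Ptgs1* was 3.68, 3.79 and 3.52 in WT primary clones 3, 4 and 5 and 10.2, 2.64 and 4.63 in the WT lines. The ratio was 14.6, 13.3 and 26.4 in *Prkd3*-/- primary clones 13, 14 and 15, all above the WT primary libraries. Among the *Prkd3*-/- lines it was 154 in line 13, 1.67 in line 13a, 0.222 in line 14 and 21.5 in line 15, so line 14 was the only library in which *Ptgs1* exceeded *Ptgs2* per length.

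**Figure D1:**
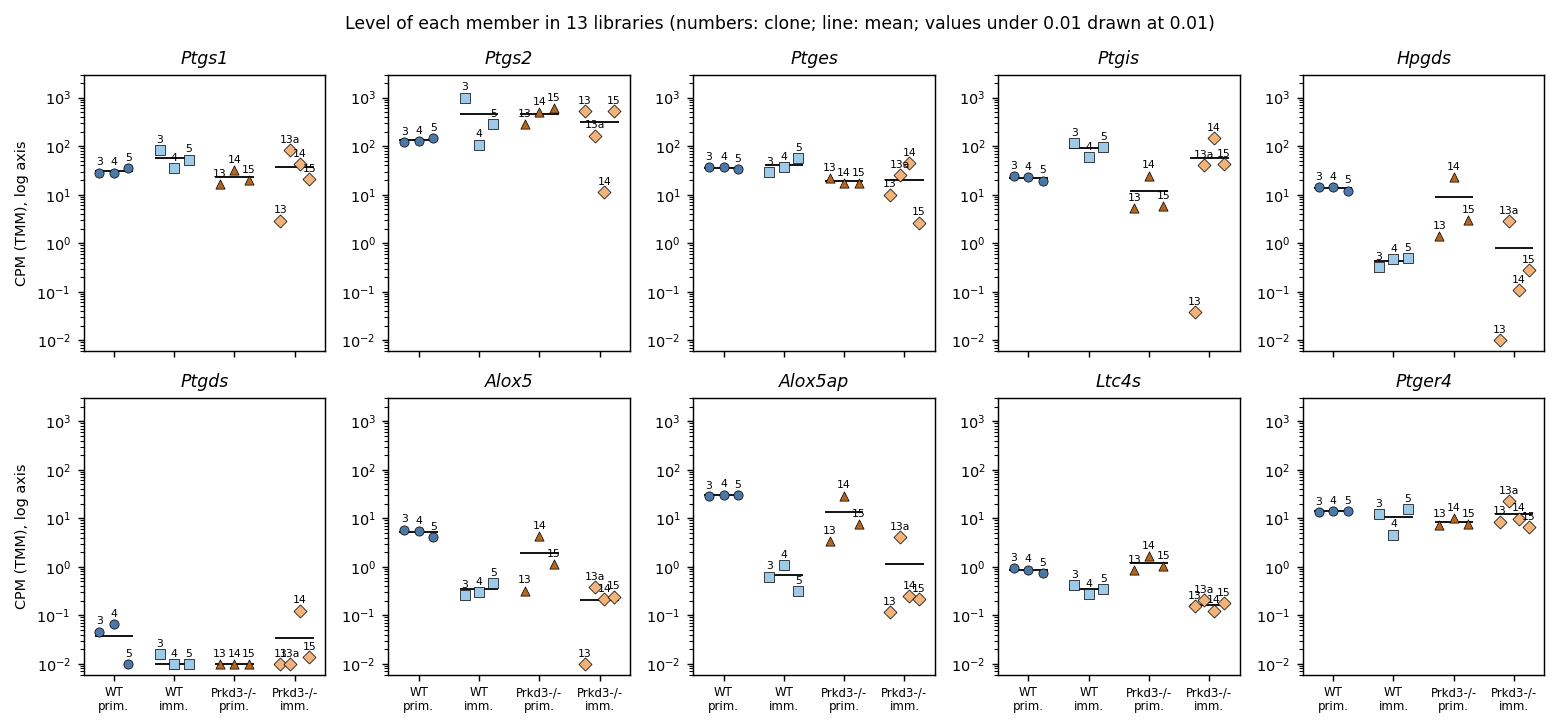
Level of each of the 10 genes (CPM, log axis) in the 13 libraries, by genotype and state, with the clone number beside each point, a line at the group mean, and values under 0.01 drawn at 0.01. *Hpgds*, *Alox5* and *Alox5ap* are low in the 3 WT immortalized lines (at most 1.08 CPM) and, apart from line 13a for *Hpgds* and *Alox5ap*, in the *Prkd3*-/- lines, while *Ptgs2*, *Ptgs1*, *Ptges* and *Ptgis* spread widely between immortalized lines.

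The terminal synthases fell into separate patterns. *Ptgis* (prostacyclin synthase, chr2:167191805-167240604, minus strand) had 24.3, 23.2 and 19.6 CPM in WT primary clones 3, 4 and 5 and 116, 59.8 and 94.9 CPM in the WT lines. All 3 lines were above all 3 primary libraries, and the Log2FC was 2.02 ± 0.26. *Prkd3*-/- primary clones 13, 14 and 15 had 5.23, 24.8 and 5.72 CPM of *Ptgis*, and lines 13, 13a, 14 and 15 had 0.0382, 41.5, 147 and 43.4 CPM. Lines 13a, 14 and 15 were above every *Prkd3*-/- primary library, whereas line 13 held 2 counts, fewer than any other library, and the Log2FC was 2.28 ± 1.65.

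*Ptges* (the inducible, membrane-bound prostaglandin E synthase, chr2:30889471-30929863, minus strand) had 36.6, 37.1 and 33.7 CPM in the WT primary clones and 29.1, 37.4 and 56.6 CPM in the WT lines, on both sides of the primary level (Log2FC 0.20 ± 0.25). Its level in *Prkd3*-/- cells was 22.0, 17.4 and 17.1 CPM in primary clones 13, 14 and 15 and 10.1, 25.0, 44.3 and 2.67 CPM in lines 13, 13a, 14 and 15. The lines again lay on both sides of the primary libraries, with a 16.6-fold range (Log2FC 0.12 ± 0.79).

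*Hpgds* (hematopoietic prostaglandin D synthase, chr6:65117293-65144908, minus strand) had 14.6, 14.6 and 12.1 CPM in WT primary clones 3, 4 and 5 and 0.322, 0.474 and 0.488 CPM in the WT lines. Every line was far below every primary library, with a Log2FC of -5.00 ± 0.23. The *Prkd3*-/- primary libraries themselves differed, with 1.42 CPM in clone 13, 22.9 CPM in clone 14 and 2.95 CPM in clone 15. Line 13 held 0 counts of *Hpgds*, which allows up to 0.0570 CPM by counting error alone, lines 14 and 15 had 0.109 and 0.283 CPM, and line 13a had 2.82 CPM. The Log2FC of -3.49 ± 1.69 between these groups, which overlapped through line 13a, was -6.08 without that line and -1.43 without primary clone 14.

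*Ptgds* (the lipocalin-type prostaglandin D synthase, known mainly from brain, chr2:25466709-25470046, minus strand) had 19 counts in all 13 libraries together, with 0 counts in 8 of them and 8 counts in the highest, line 14. It did not pass the filter on low counts, which the other 9 genes passed. *Hpgds* held more counts than *Ptgds* in every library other than line 13, with 0 counts of both, and line 14, with 7 counts of *Hpgds* against 8 of *Ptgds*.

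In the leukotriene branch, *Alox5ap* (the 5-lipoxygenase activating protein FLAP, chr5:149264767-149288153, plus strand) had 29.1, 30.8 and 30.0 CPM in WT primary clones 3, 4 and 5 and 0.628, 1.08 and 0.320 CPM in the WT lines. All lines lay below all primary libraries and the Log2FC was -5.47 ± 0.47, a 44.3-fold lower level. The *Prkd3*-/- primary clones 13, 14 and 15 had 3.32, 29.2 and 7.60 CPM, and lines 13, 13a, 14 and 15 had 0.115, 4.07, 0.250 and 0.216 CPM. Clone 14 had the WT primary level and line 13a exceeded primary clone 13, so the groups overlapped (Log2FC -3.52 ± 1.40, or -6.11 without line 13a and -2.23 without primary clone 14). An antisense gene, *Gm19719*, shares 13.3% of the exon bases of *Alox5ap*. The WT table was counted without strand, so reads on these bases were counted for both genes and their origin cannot be told.

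*Alox5* (5-lipoxygenase, chr6:116410077-116461178, minus strand) had 5.83, 5.50 and 4.11 CPM in WT primary clones 3, 4 and 5 and 0.258, 0.305 and 0.457 CPM in the WT lines, again without overlap (Log2FC -3.91 ± 0.31). It had 0.323, 4.27 and 1.15 CPM in *Prkd3*-/- primary clones 13, 14 and 15. Line 13 held 0 counts, and lines 13a, 14 and 15 had 0.384, 0.219 and 0.243 CPM, so that line 13a was above primary clone 13 (Log2FC -3.17 ± 1.20, or -3.62 without line 13a and -1.77 without primary clone 14).

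*Ltc4s* (leukotriene C4 synthase, which conjugates leukotriene A4 with glutathione, chr11:50236461-50238616, minus strand) was counted at a low level throughout, with 0.951, 0.871 and 0.733 CPM in WT primary clones 3, 4 and 5 and 0.419, 0.271 and 0.351 CPM in the WT lines. The level was 0.841, 1.64 and 1.04 CPM in *Prkd3*-/- primary clones 13, 14 and 15, against 0.153, 0.206, 0.125 and 0.175 CPM in lines 13, 13a, 14 and 15. The states did not overlap in either genotype, and the Log2FC was -1.29 ± 0.27 in WT and -2.83 ± 0.42 in *Prkd3*-/- cells. These values rest on 8 to 177 counts a library, and 26.4% of the exon bases of *Ltc4s* are shared with the antisense gene *Gm26542*.

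*Ptger4* (EP4, a G protein-coupled receptor that raises cyclic AMP, chr15:5206661-5244187, minus strand) had 13.3, 14.1 and 13.9 CPM in WT primary clones 3, 4 and 5 and 12.2, 4.60 and 15.3 CPM in the WT lines. Line 4 was the low library, and the Log2FC was -0.36 ± 0.42. The receptor had 7.42, 10.1 and 7.49 CPM in *Prkd3*-/- primary clones 13, 14 and 15 and 8.53, 22.9, 9.80 and 6.58 CPM in lines 13, 13a, 14 and 15, with line 13a the highest of all 13 libraries (Log2FC 0.51 ± 0.46, or -0.03 without line 13a). Of its exon bases, 16.5% are shared with genes on the opposite strand.

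Counted over the 9 genes that passed the filter, WT lines and WT primary libraries did not overlap for 4 genes that were lower (*Hpgds*, *Alox5*, *Alox5ap*, *Ltc4s*) and 1 that was higher (*Ptgis*). Among all 19836 genes tested, 17.4% were lower and 13.9% higher without overlap, and since the genes were chosen on these levels nothing is read from their share. In *Prkd3*-/- cells only *Ltc4s* did not overlap, against 5.26% of 20298 genes in that direction. The median Log2FC of the 9 genes was -0.36 in WT and -0.63 in *Prkd3*-/- cells, beside 0.04 and 0.07 over all genes tested.

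Ordered by mean level per kilobase of exon, the WT primary libraries held *Ptgs2* first (28.9 ± 2.58 CPM per kb, SD), then *Alox5ap* (21.1 ± 0.620) and, with overlapping ranges, *Ptges*, *Ptgis* and *Ptgs1* (9.11, 8.71 and 7.91). *Hpgds* and *Ptger4* overlapped at 2.14 and 2.07 CPM per kb, followed without overlap by *Alox5* at 1.25 and *Ltc4s* at 0.840. In the WT lines the order began with *Ptgs2* and *Ptgis* (35.2 ± 11.1 CPM per kb), whose ranges overlapped, and *Alox5ap* came after *Ptger4* at 0.477 ± 0.270. *Alox5ap* was thus the second gene per length in WT primary cells and the sixth in WT lines, where its range overlapped with those of its neighbours *Ptger4* and *Ltc4s*. In the *Prkd3*-/- lines the ranges of every neighbour in the order overlapped.

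The levels of *Alox5ap*, *Hpgds* and *Alox5* moved with the macrophage marker sum between primary libraries. Over the 6 primary libraries of both genotypes, that sum spanned a 13.1-fold range. *Alox5ap* spanned 9.29-fold in CPM, but 1.49-fold when divided by the macrophage sum of the same library, where it had 12.9 to 19.3 CPM per 1000 CPM of markers. *Hpgds* spanned 16.1-fold in CPM and 1.44-fold per marker CPM, and *Alox5* 18.1-fold and 1.92-fold. *Ltc4s* did not follow this pattern, with a 2.23-fold range in CPM and 10.6-fold per marker CPM. The WT primary libraries had sums of 1579 to 1613 CPM, so the spread came mainly from *Prkd3*-/- clones 13, 14 and 15. Among these, *Ptgis* was also highest in clone 14 (24.8 CPM, against 5.23 and 5.72 CPM in clones 13 and 15). *Ptgs1* (32.7 CPM, against 16.6 and 19.8 CPM), *Ltc4s* and *Ptger4* were highest in clone 14 as well, but *Ptgs2* and *Ptges* were not. Over the 6 primary libraries *Ptgs1* was lowest in clones 13 and 15, as was the marker sum. In WT, *Ptgis* was higher in every line than in every primary library, while the marker sum was lower. The quotient of *Ptgis* was not calculated, and the part of macrophage RNA in its level was not tested. In bulk RNA, fewer cells of a type and less RNA per cell cannot be told apart.

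**Figure D2:**
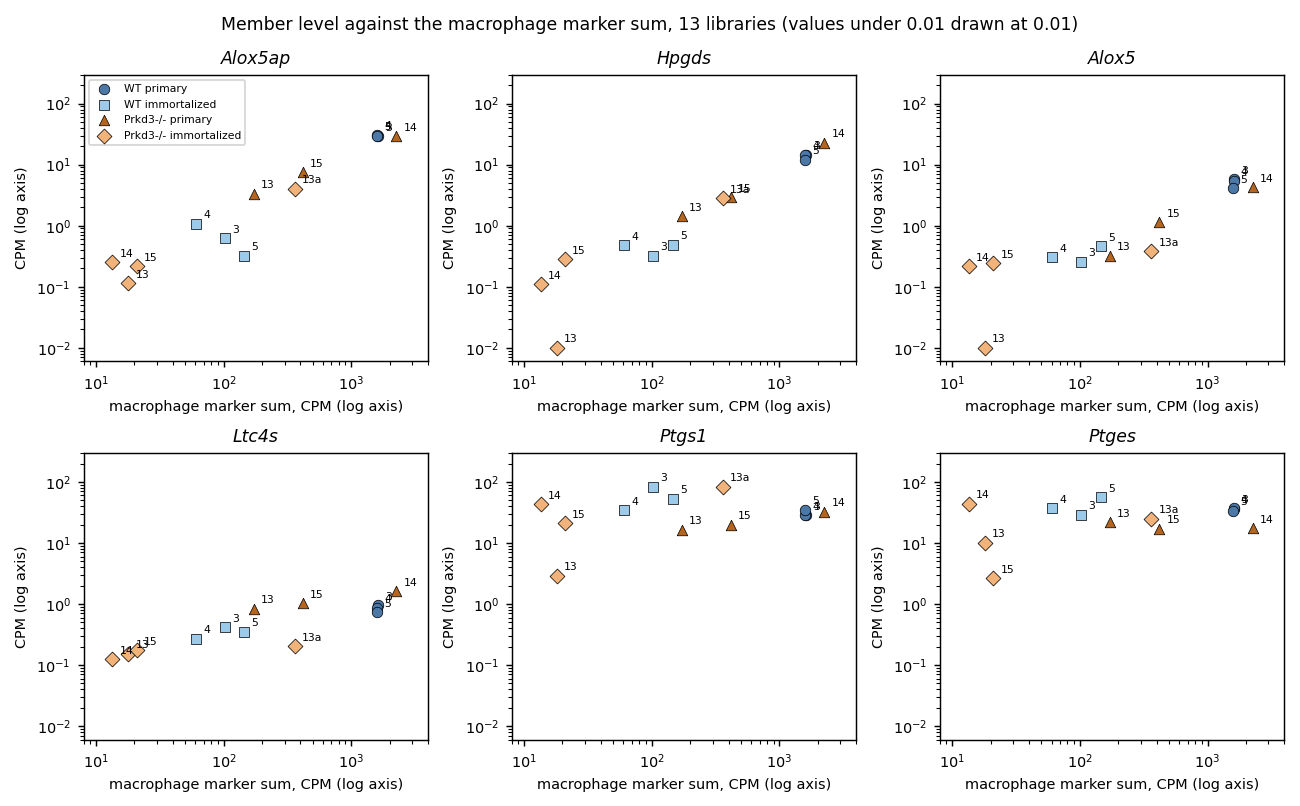
Level of 6 of the genes (CPM, log axis) against the summed level of 14 macrophage markers (CPM, log axis) in each of the 13 libraries, labelled by clone, with values under 0.01 drawn at 0.01. Primary libraries of both genotypes and line 13a lie along a rising band for *Alox5ap* and *Hpgds*. *Ptgs1* is lowest, among primary libraries, in clones 13 and 15 with the lowest sums (16.6 and 19.8 CPM, beside 28.4 to 35.1 CPM). Line 13a lies above all of these for *Ptgs1*, at 83.8 CPM. *Ptges* shows no such band.

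The same quotient in the immortalized lines rests on few counts. Per 1000 CPM of macrophage markers, *Alox5ap* had 6.17, 17.8 and 2.20 CPM in WT lines 3, 4 and 5, below the 18.0 to 19.3 CPM of the WT primary libraries, and in line 13a, the line with the highest marker sum, it had 11.3 CPM. *Hpgds* had 3.17, 7.77 and 3.35 CPM in the WT lines and 7.81 CPM in line 13a, beside 7.66 to 9.14 CPM in WT primary libraries. *Alox5* had 2.53 CPM in WT line 3 and 3.14 CPM in WT line 5, beside 2.60 to 3.61 CPM in the WT primary libraries, and in WT line 4 it was above all of them. In *Prkd3*-/- lines 13, 14 and 15, with marker sums of at most 20.9 CPM, the quotient ran from 6.37 to 18.6 CPM for *Alox5ap*, from 0 to 13.5 CPM for *Hpgds* and from 0 to 16.3 CPM for *Alox5*. In WT line 5 the marker *Adgre1* (F4/80) stood at 55.0 CPM with *Ptprc* (CD45) at 2.44 CPM, whereas *Ptprc* was at 26.8 to 30.2 CPM in the WT primary libraries, and in the whole list the share of *Lyz2* ranged from 0.318% to 54.2% of the sum. All 14 macrophage markers had a Log2FC below 0 in WT (median -4.26), 9 of them called lower by edgeR, beside 1.76% of all genes. With the clone as a block or in a joint fit of all 13 libraries, 0 genes of any kind were called in this comparison. The part of macrophage RNA in the lower level of *Hpgds*, *Alox5* and *Alox5ap* was not tested.

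Between genotypes, the 9 genes were tested by edgeR over all genes, and a gene was called where its adjusted p-value was under 0.01 with a |Log2FC| of 1 or more. In primary cells 0 of the 9 genes were called, where 0.765% of 20403 genes were. Of the 9, 3 had an unadjusted edgeR p-value under 0.05, beside 4921 of the 20403 genes. *Ptgs2* was higher in all 3 *Prkd3*-/- primary libraries (285 to 615 CPM) than in all 3 WT primary libraries (123 to 146 CPM), with a Log2FC of 1.85 ± 0.29 and an adjusted p-value of 0.0235 from edgeR. DESeq2, in which 3.89% of genes were called, called *Ptgs2* (adjusted p-value 6.08e-09) as the only 1 of the 9, and over all alternatives the adjusted p-value of *Ptgs2* ran from 6.08e-09 to 0.997 in the joint fit. *Ptges* was lower in all 3 *Prkd3*-/- libraries (Log2FC -0.91 ± 0.11, edgeR adjusted p-value 0.0127), as was *Ptger4* (-0.70 ± 0.14, 0.0445, or 0.000342 to 0.997 over the alternatives). The summed fibroblast markers were also lower in these 3 libraries than in WT primary libraries, with 7 of the 9 markers at a Log2FC below 0 (median -1.16) and 1 called, and their part in these differences was not tested. Without overlap, 18.8% of all genes were lower and 15.5% higher in this comparison. The other 6 genes had edgeR adjusted p-values between 0.366 (*Alox5*) and 0.766 (*Hpgds*).

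For a further set, the highest *Prkd3*-/- primary library was clone 14. Leaving out the highest library lowers a group by construction, so the edgeR p-values then describe only how far the result depended on clone 14. Without it, edgeR called *Ptgis* (Log2FC -2.03, adjusted p-value 5.1e-05), *Hpgds* (-2.75, 0.00173), *Alox5* (-3.03, 0.00695) and *Alox5ap* (-2.52, 0.00769) lower in *Prkd3*-/- clones 13 and 15 than in WT, in a fit that called 7.13% of all genes. With it, their Log2FC was -0.88 ± 0.62, -0.56 ± 0.96, -1.38 ± 0.83 and -1.13 ± 0.74. The macrophage sum of clones 13 and 15 (172 and 417 CPM) was below the WT primary range of 1579 to 1613 CPM, and that of clone 14 (2253 CPM) above it. Clone 13 was the *Prkd3*-/- primary library nearest to WT for *Ptgs2* and *Ptges*, so leaving it out widened both differences by construction. Without clone 13, *Ptgs2* (Log2FC 2.11, adjusted p-value 0.00364) and *Ptges* (-1.03, 0.00596) were called, in a fit that called 0.873% of all genes. Over all alternatives the adjusted p-values reached 0.997 for each of these genes, and the lowest were those just given, except for *Ptgs2* as above and *Ptges* (1.11e-08 in DESeq2, where its |Log2FC| stayed under 1). DESeq2 gave no adjusted p-value for *Hpgds*. Genotype and deposited table cannot be told apart here, since each genotype was counted in a table of its own.

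Between the immortalized lines, edgeR called 0 of the 9 genes, beside 0.0406% of 19683 genes, and DESeq2 called 0 as well (0.833% of genes). Only 1 of the 9 genes, *Ltc4s*, had an unadjusted edgeR p-value under 0.05, beside 1355 of the 19683 genes. *Ltc4s* was lower in all 4 *Prkd3*-/- lines (0.125 to 0.206 CPM) than in the 3 WT lines (0.271 to 0.419 CPM), with a Log2FC of -1.06 ± 0.40 and an edgeR adjusted p-value of 0.714, and 4.19% of all genes were lower without overlap. The standard errors of *Ptgs2* (-0.59 ± 1.16), *Ptgis* (-0.63 ± 1.45) and *Hpgds* (0.92 ± 1.50) exceeded their Log2FC, so differences of these sizes were within the spread between lines.

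**Figure D3:**
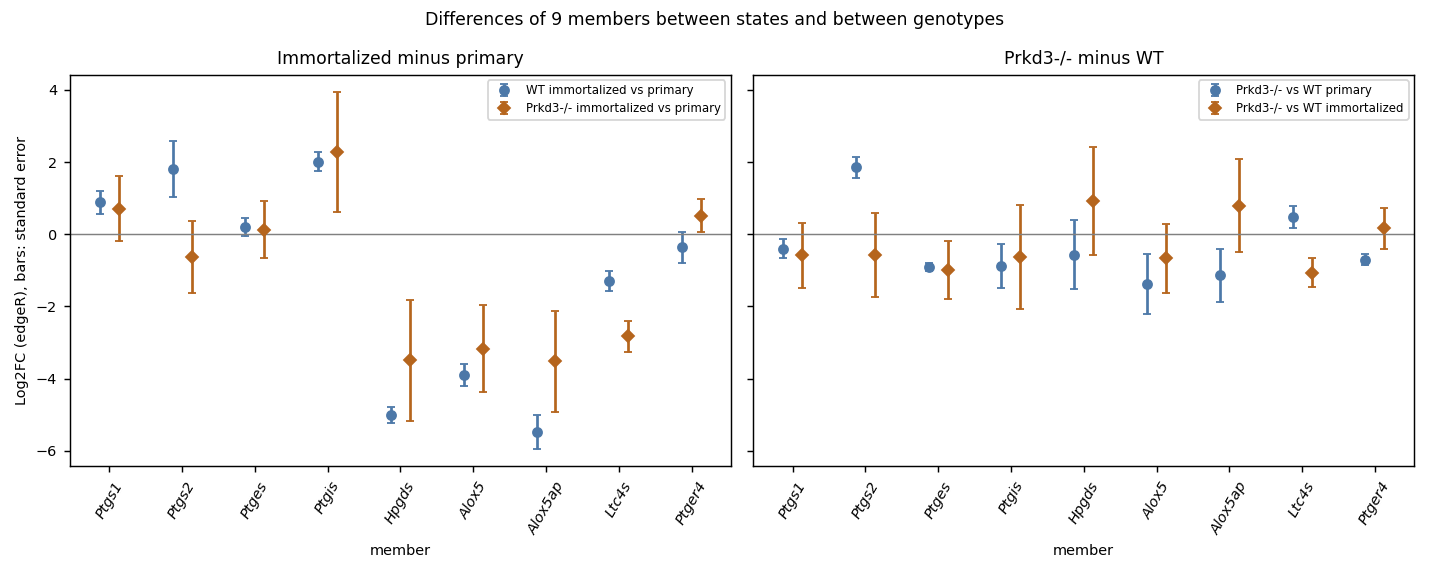
Log2FC with its standard error (edgeR) for the 9 genes that passed the filter, for immortalized minus primary cells on the left and *Prkd3*-/- minus WT cells on the right. The left panel is a description. In the right panel *Ptgs2* in primary cells stands at 1.85 ± 0.29, and no gene passed the thresholds.

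The wider eicosanoid list holds 60 other genes of the pathway in 7 roles, written from general knowledge of the pathway. In WT cells 38 of them passed the filter. Of these, 18 had an unadjusted edgeR p-value under 0.05, beside 3905 of all 19836 genes tested. Of the 38, edgeR called 3 lower (1.76% of all genes were) and 0 higher (0.0605% of all genes, and 0 by DESeq2). The 3 genes were *Hpgd*, the dehydrogenase that starts the inactivation of prostaglandins (9.56 ± 0.384 to 0.270 ± 0.129 CPM, SD, Log2FC -5.13 ± 0.37, adjusted p-value 0.0022), *Dpep2*, a dipeptidase that converts leukotriene D4 to leukotriene E4 (6.45 ± 0.218 to 0.420 ± 0.211 CPM, -3.93 ± 0.43, 0.00726), and *Tbxas1*, thromboxane A synthase (2.67 ± 0.312 to 0.415 ± 0.154 CPM, -2.68 ± 0.33, 0.00996). In each case all WT lines lay below all WT primary libraries. *Dpep2* shares 44.0% of its exon bases with other genes, so its counts are uncertain. The macrophage marker sum was lower in the same lines, as were the sums of 8 endothelial markers (15.6 to 19.9 CPM in WT primary libraries, 2.01 to 3.93 CPM in WT lines) and of 6 epithelial markers (2.36 to 2.72 CPM, 0.177 to 0.542 CPM). The part of these cell types in the change was not tested. None of the 3 calls held in edgeR without WT primary library 3, 4 or 5, with the clone as a block, or in a joint fit of all 13 libraries.

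Over the 38 genes, 22 had a Log2FC below 0 and the median was -0.07, beside 0.04 over all genes. The cysteinyl leukotriene receptor *Cysltr1*, the highest of the leukotriene receptors per length, had 4.63 ± 0.833 CPM in WT primary libraries and 0.479 ± 0.579 CPM in WT lines (Log2FC -3.26 ± 0.92, adjusted p-value 0.129). In the supply of arachidonic acid the highest gene was *Pla2g4a*, cytosolic phospholipase A2, with 116 ± 8.79 and 228 ± 115 CPM (0.98 ± 0.41, 0.271). *Ptges3*, the cytosolic prostaglandin E synthase also known as the co-chaperone p23, led the other synthases (69.6 ± 1.95 and 96.8 ± 19.3 CPM, 0.48 ± 0.15, 0.158). *Mgst3*, a microsomal glutathione transferase, led the leukotriene enzymes (Log2FC 0.74 ± 0.58), *Zadh2* the inactivation genes (0.00 ± 0.25) and *Alox12* the other lipoxygenases (-1.04 ± 0.38), all with adjusted p-values above the threshold.

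In *Prkd3*-/- cells edgeR called 0 of 39 genes of the wider list and 0 of all 20298 genes, so the background was 0%. Of the 39 genes, 5 had an unadjusted edgeR p-value under 0.05, beside 1331 of the 20298 genes. DESeq2, which called 0.764% of all genes, called 0 of the 39. *Hpgd* had 2.22 ± 0.886 CPM in the primary libraries and 0.169 ± 0.230 CPM in the lines (Log2FC -3.70 ± 1.17, adjusted p-value 0.648), and *Dpep2* had 3.05 ± 2.62 and 0.393 ± 0.362 CPM (-2.95 ± 1.19, 0.733). The interaction of state and genotype was called for no gene of the list or of all 21197 genes tested by edgeR, with 841 genes at an unadjusted p-value under 0.05 and 37 called by DESeq2.

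**Figure D4:**
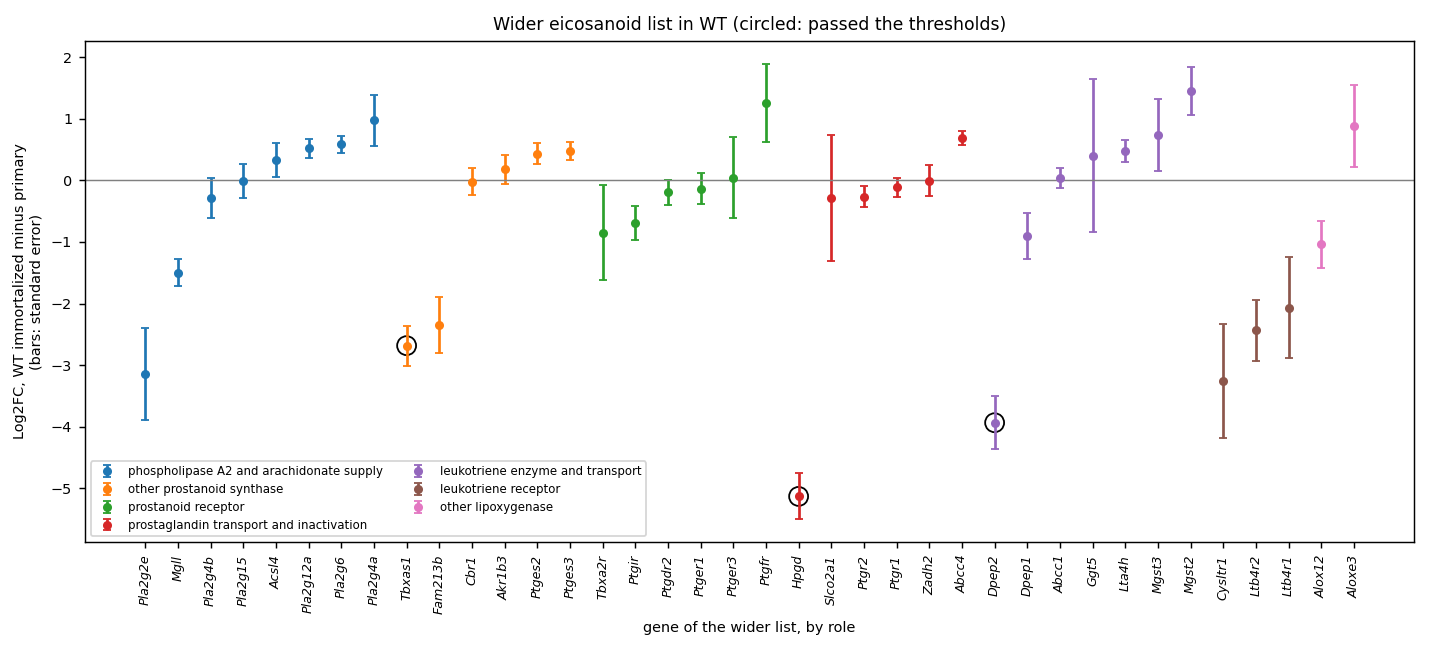
Log2FC of WT immortalized minus primary cells, with its standard error (edgeR), for the 38 genes of the wider list that passed the filter, grouped by role. The 3 circled genes, *Tbxas1*, *Hpgd* and *Dpep2*, passed the thresholds, and all 3 were lower in immortalized cells.

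The genes whose levels over the 13 libraries lay closest to each of the 9 genes were ranked by the root mean square difference of log2 CPM, each gene centred on its own mean, among 21196 genes. This measure describes likeness over libraries that share depth and cell make-up. Overlapping genes also share reads in the WT table, so the likeness of *Ptgs1* to *Gm43621* and of *Alox5ap* to *Gm19719* can come from the same reads. *Hpgds* was closest to *Pld4* (0.57), *Irf8* (0.57) and *Galnt6* (0.58). *Alox5* was closest to *Dpep2* (0.54), a second gene annotated as *Dpep2* (0.59) and *Snx20* (0.59), and *Alox5ap* to its antisense partner *Gm19719* (0.33), *Susd3* (0.43) and *Lyz1* (0.58). *Ptgs1* was closest to the overlapping *Gm43621* (0.15), *Pde8b* (0.47) and *Gm9817* (0.48). *Ptges* was closest to *Rab3d* (0.41), *Palm3* (0.43) and *D130017N08Rik* (0.49), and *Ptger4* to *Apbb1ip* (0.35), *Snhg18* (0.37) and *4930432K21Rik* (0.37). *Ptgis* had no close neighbour, the nearest being *Rgl3* at 0.92, followed by *Aldh1a1* and *BC028528* (1.22).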

How the data were processed

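Poly-A RNA of 13 MEF cultures was sequenced, and the counts per gene were deposited by the authors in 2 tables, 1 for each genotype, without normalization. Per the labels' processing notes, reads were mapped to mm10 (GRCm38) with STAR 2.7.10a, handled with SAMtools 1.18 and counted with featureCounts of Subread 2.0.6. The header of the WT table shows that read pairs were counted without strand and given to every gene they overlap, so overlapping genes share reads. The options behind the *Prkd3*-/- table are not given in the sources used here. The deposited exon length per gene (bases) was used for CPM per kilobase.

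Counts were used as deposited, with groups from the sample titles. Each comparison was fitted on its own libraries with edgeR 4.0.16 in R 4.3.3 (quasi-likelihood, robust, TMM, filterByExpr, Benjamini-Hochberg adjustment over all genes), with thresholds of 0.01 for the adjusted p-value and 1 for |Log2FC|. The interaction threshold was 0.05. The standard error is the size of Log2FC divided by the square root of F. Alternatives were DESeq2 1.42.0, RLE size factors, no filter, the clone as a block, lines 13 and 13a summed, a joint fit and each library left out. Likeness used log2 CPM with a prior count of 1. The fits were also run on simulated counts with the same spread set for every group. The real groups differ in spread, so that run does not show how calls behave under unequal spread. Limits at 0 counts are 3 counts and cover counting error only.

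The 10 genes and all lists were chosen with earlier results of these data known, and the promoter motifs after the values were seen. Genes named from the wider list are those called between states and the highest per length in each role. The likeness of *Ptgs2* and *Ltc4s* and the highest prostanoid receptor are not reported here. For 1 listed symbol, *Dpep2*, 2 gene IDs exist and the longer was used. Clone numbers in the titles tie each line to a primary library, and different embryos are stated only for the WT clones. The deviations of a line and its own primary library from their group means correlated between -0.04 and 0.02 in WT, and at 0.14, -0.28, 0.09 and 0.04 for lines 13, 13a, 14 and 15.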

Additional observations from a re-analysis of the deposited data

Results flagged for a closer look

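Among the 4 *Prkd3*-/- immortalized lines, line 13a stood far from the others for *Hpgds*, with 2.82 CPM against 0 to 0.283 CPM, a gap of 0.900 of the range of the group. The same line stood apart for *Alox5ap*, with 4.07 CPM against 0.115 to 0.250 CPM, a gap of 0.966 of the range. These gaps only describe the lines, since the genes were chosen on these levels and lines 13 and 13a share a clone number. The macrophage marker sum of line 13a was 361 CPM, against 13.5 to 20.9 CPM in the other 3 lines, and its part in these values was not tested.

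The state difference pointed in opposite directions in the genotypes for 2 genes of the wider list, with every WT line below the mean of its primary libraries and every *Prkd3*-/- line above the mean of its own. *Pla2g4c*, a cytosolic phospholipase A2, had an immortalized level of 0.672 times the primary level in WT and 2.52 times in *Prkd3*-/- cells. *Ptgdr2*, a receptor for prostaglandin D2, had 0.875 times and 1.67 times. *Ptgdr2* shares 39.0% of its exon bases with *Ccdc86* on the opposite strand, so its counts are uncertain. The difference itself was tested by the interaction term of edgeR over all genes, and neither gene passed it. *Pla2g4c* had an interaction Log2FC of 1.84 ± 0.71 (SE), with an edgeR unadjusted p-value of 0.0250 and adjusted p-value of 1.00, and *Ptgdr2* had 0.93 ± 0.39, with 0.0357 and 1.00. *Pla2g4c* was at a low level, 0.0740 to 0.313 CPM as group means, and did not pass the filter in WT. For both genes the ranges of WT lines and WT primary libraries overlapped.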

How the results depend on the processing

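Counts of called genes depended on the setting. In WT 361 genes were called between states, and DESeq2 called 1255, the replicate block 0 and the joint fit of all 13 libraries 0. With 1 library left out the count was 48 to 743 (48, 50 and 66 without WT primary 3, 4 and 5, and 743 without WT line 5). The 3 wider-list genes became 7 in DESeq2, 0 with the block and 0 in the joint fit, and 0 to 4 with 1 library left out. In *Prkd3*-/- cells the count of 0 became 155 in DESeq2 and 1 in the joint fit. Between primary genotypes 156 genes became 793 in DESeq2, 335 without a filter, 36 in the joint fit and 2 to 1456 with 1 library left out (2 without WT clone 3 or 4, 27 without WT clone 5, 1456 without *Prkd3*-/- clone 14 and 75 without clone 15). Between lines 8 became 164 in DESeq2, 55 in the joint fit and 0 to 10 with 1 library left out (2 without WT line 3, and 0 without WT line 4 or 5 or line 13a, 14 or 15). The interaction count of 0 became 37 in DESeq2 and 0 to 2 with 1 library left out (2 without line 14). The cause was not tested. The clone pairing comes from the titles, and the block changed no other call.

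Between the lines of the genotypes, 4 of the 9 genes changed sign with 1 library left out. *Ptgs2* ranged from -1.06 to 0.62 (highest without WT line 3), *Hpgds* from -1.66 to 1.33 and *Alox5ap* from -1.78 to 1.30 (both lowest without line 13a), and *Ptger4* from -0.36 to 0.49 (-0.20 without WT line 4, -0.36 without line 13a). Between states, *Ptges* turned to -0.11 in WT without line 5, and in *Prkd3*-/- cells to -0.59 without line 14 and -0.49 with the block. Depth limits *Ltc4s*, *Ptgds* and the lines' *Alox5*, *Alox5ap* and *Hpgds* values, which rest on few counts. Outside line 13a, *Alox5ap* had 6 to 64 counts in an immortalized line.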
